A study of Homo sapiens with 12 samples.

Results

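Aminoacyl-tRNA synthetases and the scaffold proteins that hold some of them together were followed across the 4 groups of an RNA sequencing study of PEPD over-expression. The 38 genes were taken by symbol from a deposited table of 63241 genes: 19 cytosolic enzyme genes, 16 mitochondrial ones and 3 scaffold genes. The list is not complete, as it holds neither aspartyl enzyme. The cells came from T98G and U251, established lines derived from human glioblastoma, a brain tumour. Within each line the label PEPD-OE marks over-expression of PEPD and the label NC, which is not spelled out, marks its counterpart. There were 3 libraries each of T98G PEPD-OE, T98G NC, U251 PEPD-OE and U251 NC, 12 libraries in 4 groups. The labels name no vector, promoter or clone, and no treatment beyond PEPD-OE or NC. Nothing in them tells if replicates were separate cultures, so p-values here reflect variation among these libraries alone, which may be technical.

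Each synthetase joins an amino acid to its matching tRNA, the step that supplies the ribosome. Separate sets of nuclear-encoded enzymes serve the cytosol and the mitochondrion, which has a ribosome of its own, while GARS1 and KARS1 encode forms for both compartments. In animal cells several cytosolic enzymes sit in a multi-synthetase complex around the scaffold proteins AIMP1, AIMP2 and EEF1E1. Many cytosolic synthetase genes are known targets of ATF4, the transcription factor made when the initiation factor eIF2 is phosphorylated, for example by the amino acid sensor kinase EIF2AK4. WARS1, the tryptophanyl enzyme, is also a known interferon-induced gene. PEPD encodes peptidase D, or prolidase, which releases proline from dipeptides.

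In gene promoters ATF4 and its partners are known to bind an amino acid response element, whose core was searched for as TGATGNAA, read on the other strand as TTNCATCA. The interferon-stimulated response element was searched for as GAAANTGAA, read on the other strand as TTCANTTTC. Both motifs were chosen after the values below were seen. RefSeq promoter windows of 300 bases (250 before and 50 after a start, GRCh38.p14) were found by symbol for 33 of the 38 genes, in 45 windows. No window was matched for LARS1, YARS1, VARS1, VARS2 and AARS2. The amino acid response core occurred for 7 of 16 matched cytosolic genes, 1 of 14 matched mitochondrial genes (YARS2) and 0 of 3 scaffold genes, against 4.46% of the 27305 genes with a window and 3.62% of the 35116 windows. Of the 10 cytosolic genes with lower expression in T98G PEPD-OE, WARS1, SARS1, FARSA and KARS1 had no such core. All 10 were among the 16 matched cytosolic genes, and whether the core goes with lower expression was not tested. The sequences are shown because 6 of the 7 cytosolic genes with the core, all but CARS1, were among those 10. Each is written 5′ to 3′ on the gene's own strand, with 10 bases on each side and the motif in capitals, and the position is that of the motif's first base from the start.
TARS1, 3 bases after the start, chr5:33440957-33440984, plus strand: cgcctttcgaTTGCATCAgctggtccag
GARS1, 33 bases before, chr7:30594835-30594862, plus strand: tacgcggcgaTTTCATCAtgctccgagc
IARS1, 13 bases before, chr9:92293693-92293720, minus strand: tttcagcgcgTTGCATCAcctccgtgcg
MARS1, 4 bases before, chr12:57488054-57488081, plus strand: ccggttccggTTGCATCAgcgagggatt
AARS1, 187 bases before, chr16:70289676-70289703, minus strand: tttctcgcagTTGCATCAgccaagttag
NARS1, 15 bases after, chr18:57621805-57621832, minus strand: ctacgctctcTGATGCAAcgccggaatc
CARS1, 2 bases before, chr11:3057408-3057435, minus strand: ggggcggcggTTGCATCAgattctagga
WARS1, interferon core, 55 bases before the start of the downstream of its windows, chr14:100375384-100375412, minus strand: tttcagaaggGAAACTGAAagaaagaggg

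In 5 of the 7 cytosolic genes the core began within 15 bases of the start, with GARS1 and AARS1 farther upstream. The interferon core is shown because WARS1 fell most in T98G; it was found for 1 of the 16 matched cytosolic genes (WARS1), 0 of 14 mitochondrial and 1 of 3 scaffold genes (AIMP1), against 2.38% of genes and 1.94% of windows. A match describes letters only; binding was not measured here.

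Library totals ran from 464056 to 924204 counts, and the 38 genes together held 836 to 1498 counts of a library, and 3 counts were worth 3.25 to 6.46 CPM, the count per 1e+06 counts of a library. PEPD stood at 154, 139 and 147 CPM in T98G PEPD-OE against 19.4, 2.70 and 11.8 CPM in T98G NC, a log2 fold change of 4.04 (SE 0.25), and at 176 ± 12.4 against 9.06 ± 3.22 CPM (SD, n = 3) in U251, a log2 fold change of 4.16 (SE 0.23). The glioma markers VIM and CD44 were high in every group, at means of 358 CPM or more, whereas SOX2 averaged 0.45 to 0.46 CPM in the T98G groups and 278 to 362 CPM in the U251 groups, NES at most 6.51 CPM in T98G, and OLIG2 had 0 counts and S100B and AQP4 4 and 1 in all libraries. Of epithelial markers EPCAM had 0 counts and CDH1 3, but KRT8 averaged 31.1 to 87.7 CPM and KRT18 22.7 to 64.1 CPM. Of fibroblast markers COL1A2 averaged 232 to 482 CPM and, in T98G, PDGFRB 50.9 to 64.8 CPM, with DCN and LUM at 7 and 2 counts. Of endothelial markers VWF had 0 counts and CDH5 3, with PECAM1 at up to 5.91 CPM in T98G, and of leukocyte markers PTPRC reached 15.7 CPM. The strand setting of the authors' counting is not given in the sources used here. TALAM1, annotated on the strand opposite to MALAT1, held 219603 counts against 4272 for MALAT1, so a count may come from the other strand than the gene it is filed under. Exons of 18 of the 38 genes share bases with a gene on the other strand, and there the sources of reads cannot be told apart. For the rest of the 38 genes, too, the strand of the counted reads is not known. The T98G PEPD-OE libraries also had more of their counts under mitochondrially encoded genes (7.5% to 9.32% against 4.94% to 6.01% in T98G NC) and under TALAM1 (3.48% to 4.18% against 1.11% to 1.23%). In U251 the TALAM1 share was 1.7% to 2.30% in PEPD-OE and 2.31% to 2.87% in NC. It was thus lower with PEPD-OE in U251, the reverse of T98G, and higher in U251 NC than in T98G NC. In both lines, and between the NC groups, the group with the higher TALAM1 share had the lower summed cytosolic synthetase level given below. T98G PEPD-OE had the highest TALAM1 share but not the lowest mean of that sum. The part of either share in the results below was not tested.

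Over-expression of PEPD in T98G was accompanied by lower transcript levels of 10 of the 19 cytosolic synthetases, and none was called higher. The background for that direction was 14.7% of the 8773 genes tested, and 32.3% were called in either direction. The median log2 fold change was -0.67 over the cytosolic genes and 0.00 over all genes tested. Calls were made at an adjusted p under 0.05 in edgeR's quasi-likelihood test with Benjamini-Hochberg adjustment over all 8773 genes. In these bulk samples fewer cells expressing a gene and less RNA per cell cannot be told apart. Fold changes in the text come from that fit after TMM scaling, while CPM values are counts over raw library totals. TMM scaling adds 0.22 to a log2 ratio of CPM values in T98G, and takes off 0.08 in U251 and 0.12 between the NC groups.

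WARS1 changed most. Its level was 92.7, 104 and 127 CPM in T98G NC and 20.8, 23.6 and 20.6 CPM in T98G PEPD-OE. Every PEPD-OE library lay well below every NC library, with a fitted log2 change of -2.12 (SE 0.23, edgeR adjusted p = 3.52e-15), 4.33-fold lower. TARS1, the threonyl enzyme, was at 99.1, 109 and 104 CPM in NC and at 45.6, 36.0 and 33.5 CPM in PEPD-OE. The NC libraries of TARS1 were close together and far from the others, and the log2 fold change was -1.22 (SE 0.20, edgeR adjusted p = 8.78e-08). SARS1, the seryl enzyme, stood at 155, 148 and 159 CPM in NC and at 61.2, 81.7 and 65.7 CPM in PEPD-OE. Its groups did not overlap either, and the fitted log2 value was -0.93 (SE 0.17, edgeR adjusted p = 1.44e-06).

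Among the other genes that fell, IARS1 (isoleucyl) had 45.3, 68.8 and 69.5 CPM in NC and 31.3, 29.1 and 18 CPM in PEPD-OE. The groups were separate, and the fitted log2 fold change was -1.05. FARSA, the catalytic subunit of the phenylalanyl enzyme, had 25.9, 52.6 and 44.6 CPM in NC and 11.7, 16.6 and 21.9 CPM in PEPD-OE. Its spread within groups was wider than that of SARS1, and its log2 fold change was -1.13 (SE 0.30, edgeR adjusted p = 0.00115). FARSB, which encodes the partner subunit, was not called (log2 fold change -0.77, edgeR adjusted p = 0.116), with NC libraries spread over 43.1, 12.1 and 22.3 CPM. The remaining genes that fell were MARS1 (methionyl) at -0.91, GARS1 (glycyl) at -0.71, KARS1 (lysyl) at -0.70, NARS1 (asparaginyl) at -0.67 and AARS1 (alanyl) at -0.49.

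The calls for AARS1 and GARS1 depended on single libraries. Without T98G NC replicate 3 the edgeR adjusted p was 0.160 for AARS1 and 0.118 for GARS1, and without T98G PEPD-OE replicate 1 it was 0.0609 for AARS1. With DESeq2 AARS1 had an adjusted p of 0.0710. Fitted on raw library totals in place of TMM, where the median of all genes moves by -0.21, 18 of the 28 tested genes were called lower in T98G and 0 higher. In that fit 2067 of all 8773 genes tested were called lower and 1046 higher.

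The 9 cytosolic genes that were not called fell into 2 kinds. For YARS1, EPRS1, VARS1, CARS1, LARS1 and FARSB the log2 fold change lay between -0.77 and -0.29, and for the first 5 of these the CPM values of the groups did not overlap. YARS1, the tyrosyl enzyme, was nearest to the threshold (log2 fold change -0.51, edgeR adjusted p = 0.0532). HARS1, QARS1 and RARS1, the histidyl, glutaminyl and arginyl enzymes, had log2 fold changes of 0.28, 0.53 and 0.20. HARS1 was at 129, 181 and 165 CPM in NC and at 154, 176 and 174 CPM in PEPD-OE, with overlapping libraries (edgeR adjusted p = 0.130). QARS1 was at 25.9, 37.8 and 23.6 CPM in NC and at 33.9, 41.6 and 34.8 CPM in PEPD-OE, also with overlap (edgeR adjusted p = 0.117). In all, 15 of the 19 cytosolic genes had every T98G PEPD-OE library below every NC library on raw CPM, and 15 on TMM-scaled CPM, against 30.2% and 20.9% of the genes tested. On TMM-scaled CPM 2 of the 19, HARS1 and QARS1, had every PEPD-OE library above every NC library. The same held for 1982 of the 8773 genes tested.

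**Figure D1:**
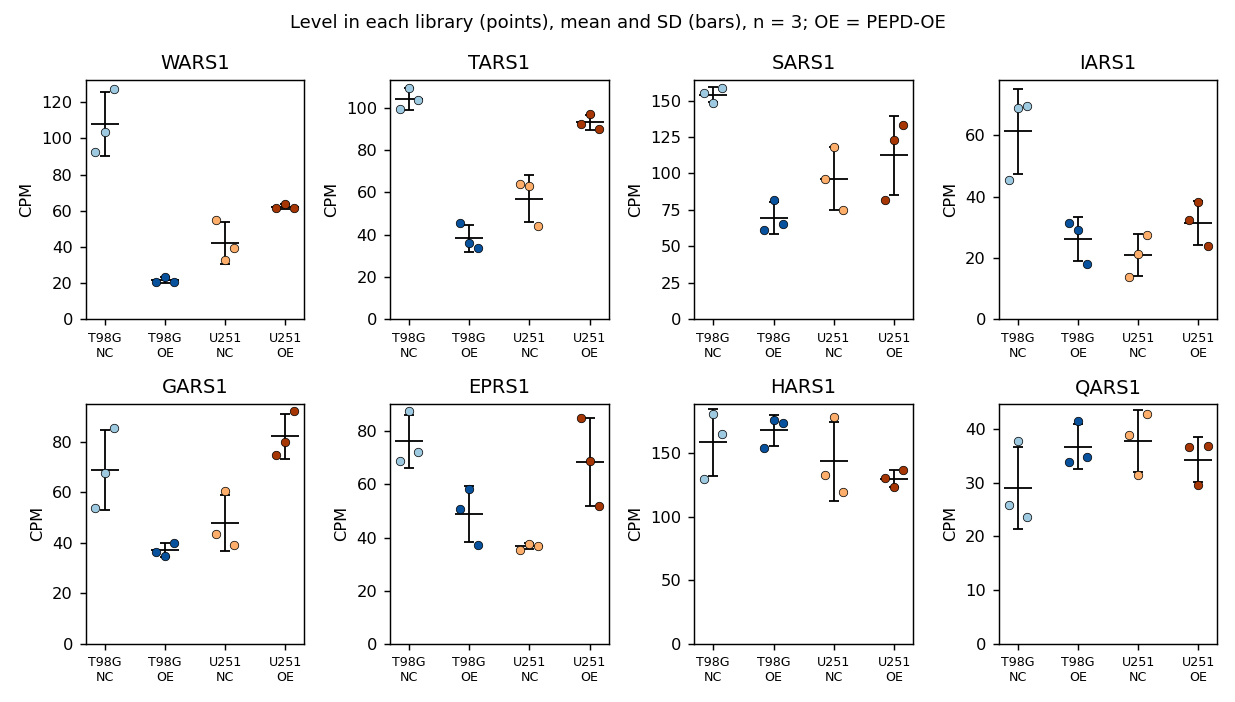
Levels of 8 cytosolic synthetases in CPM (counts over raw library totals, linear axes from 0) in each of the 12 libraries; points are libraries, and bars are the mean and SD of 3. WARS1, TARS1, SARS1, IARS1, GARS1 and EPRS1 (not called in T98G) lie lower in every T98G PEPD-OE library than in any T98G NC library. HARS1 and QARS1 overlap in both lines on this scale, though not in T98G after TMM scaling. TARS1, GARS1, EPRS1 and WARS1 (not called in U251) lie higher in every U251 PEPD-OE library than in any U251 NC library.

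In U251, 3 cytosolic synthetases were higher with PEPD over-expression and none was called lower. The background was 4.13% of the genes tested called higher, 4.42% called lower and 8.55% in either direction. The 3 genes were EPRS1, the joint glutamyl and prolyl enzyme, GARS1 and TARS1. The median log2 fold change was 0.40 over the 19 cytosolic genes and 0.00 over all genes tested.

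EPRS1 was at 35.5, 37.7 and 36.9 CPM in U251 NC and at 84.9, 68.8 and 51.9 CPM in U251 PEPD-OE. The NC libraries agreed closely while the PEPD-OE libraries were spread, all above NC, and the log2 fold change was 0.80 (SE 0.21, edgeR adjusted p = 0.00645). GARS1 was at 43.5, 60.3 and 39.3 CPM in NC and at 74.7, 79.8 and 92.0 CPM in PEPD-OE. Its groups did not overlap, and the fitted value was 0.72 (SE 0.19, edgeR adjusted p = 0.00638). TARS1 was at 64.1, 62.8 and 44.0 CPM in NC and at 92.2, 97.0 and 89.8 CPM in PEPD-OE. Its groups were separate as well, and the fitted value was 0.63 (SE 0.18, edgeR adjusted p = 0.0123).

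All 3 calls were lost with DESeq2, where the adjusted p was 0.0624 for EPRS1, 0.0785 for GARS1 and 0.0971 for TARS1. In edgeR, EPRS1 was not called without U251 PEPD-OE replicate 1 (adjusted p = 0.0980). GARS1 was not called without U251 PEPD-OE replicate 3 (0.0567), U251 NC replicate 1 (0.0575) or U251 NC replicate 3 (0.0762). TARS1 was not called without U251 PEPD-OE replicate 2 (0.0573) or U251 NC replicate 3 (0.150). Leaving out U251 NC replicate 3 left 1 gene called.

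Of the 16 cytosolic genes not called in U251, FARSB had the highest log2 fold change (1.14, SE 0.43, edgeR adjusted p = 0.0801) on few counts, at 9.15, 8.79 and 3.57 CPM in NC against 17.6, 18.4 and 15.1 CPM in PEPD-OE. NARS1 followed at 0.56 (edgeR adjusted p = 0.0797). WARS1 was at 54.9, 32.6 and 39.3 CPM in NC and at 61.5, 63.9 and 61.7 CPM in PEPD-OE, without overlap but not called (log2 fold change 0.47, edgeR adjusted p = 0.156). HARS1, QARS1 and RARS1 had values of -0.22, -0.22 and -0.06. In 7 of the 19 genes every PEPD-OE library lay above every NC library on raw and on TMM-scaled CPM, against 14.9% and 11.4% of the genes tested.

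The difference between the lines was tested directly, as the T98G change minus the U251 change. It was negative and called for 14 of the 19 cytosolic genes and for the scaffold gene AIMP1, and positive and called for none. Over all genes tested 13.6% were called in the negative direction and 14.1% in the positive one, 27.7% together. The median over the cytosolic genes was -1.10, and over all genes -0.02.

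WARS1 had the largest difference, -2.58 on the log2 scale (SE 0.31, edgeR adjusted p = 1.55e-12), and TARS1 differed by -1.85 (SE 0.27, edgeR adjusted p = 2.94e-09). For GARS1 the difference was -1.43 (SE 0.29, edgeR adjusted p = 2.70e-05). TARS1 and GARS1 were the 2 genes called lower in T98G and higher in U251. EPRS1 (-1.24), FARSB (-1.92) and YARS1 (-0.995) differed between the lines although their T98G changes were not called. Fitted values were negative in T98G and positive in U251 for 16 of the 19 genes, and the other 3, HARS1, QARS1 and RARS1, had the reverse signs, except that on raw totals RARS1 was at -0.01 in T98G and 0.02 in U251. For those 3 the difference between the lines was 0.49, 0.75 and 0.26, not called; HARS1 had an edgeR adjusted p of 0.0570, and 6 of the 12 fits with 1 library left out called it, with adjusted p between 0.0281 and 0.0480.

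Several of these differences rested on single libraries. VARS1 (edgeR adjusted p = 0.0462) lost its call when any of 8 libraries was left out: T98G PEPD-OE replicates 1 and 2, T98G NC replicates 1 and 3, U251 PEPD-OE replicates 2 and 3, and U251 NC replicates 1 and 3, with adjusted p between 0.0714 and 0.178. AARS1 was not called without T98G NC replicate 3 (0.0691) or U251 NC replicate 3 (0.0562), KARS1 without U251 NC replicate 3 (0.0667), and FARSB without T98G NC replicate 1 (0.0656). AIMP1 was not called without T98G PEPD-OE replicate 2 (0.0820), T98G NC replicate 3 (0.185) or U251 NC replicate 2 (0.0611). DESeq2 called 11 genes in place of 15, losing AARS1 (0.0635), KARS1 (0.0705), VARS1 (0.172) and AIMP1 (0.111). VARS1 was also lost with RLE scaling, both other filters on low counts, the replicate block and the genes without opposite-strand overlap, and AIMP1 with no filter (0.0613).

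**Figure D2:**
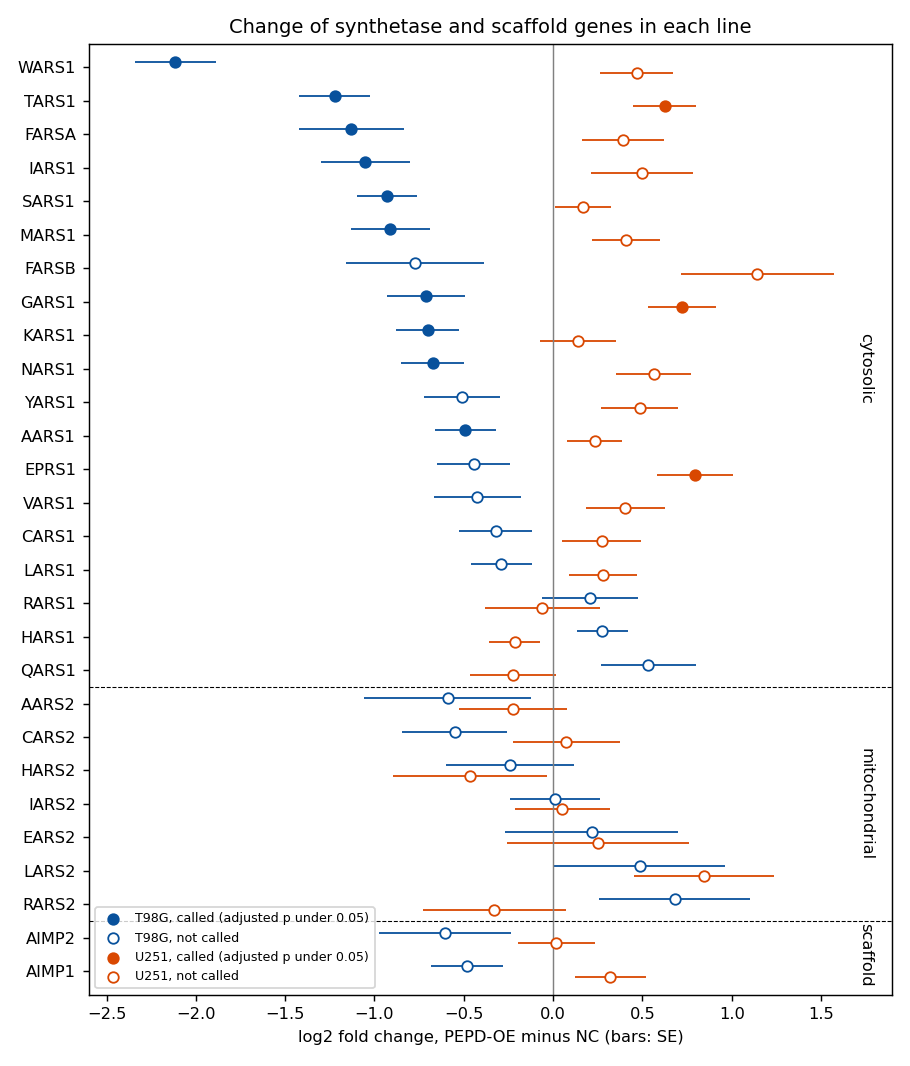
Fitted log2 fold change (PEPD-OE minus NC, horizontal axis) of the 28 genes that passed the filter on low counts, in T98G (blue) and U251 (orange); bars are the SE from the edgeR fit, and filled points are called at an adjusted p under 0.05. Among cytosolic genes 10 blue points are filled left of 0 and 3 orange points right of 0, while no mitochondrial or scaffold gene is filled.

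The control groups themselves differed. In T98G NC 12 of the 19 cytosolic synthetases were higher than in U251 NC and none was called lower, where 24.4% of the genes tested were called higher, 24.3% lower and 48.7% in either direction. This comparison shares its NC libraries with both PEPD comparisons, so it is no separate evidence on them. NARS1 was at 125, 107 and 135 CPM in T98G NC and at 37.8, 38.9 and 33.3 CPM in U251 NC. The T98G libraries all lay above, with a log2 difference of 1.61 (SE 0.19, edgeR adjusted p = 3.50e-13). KARS1 was at 125, 129 and 104 CPM against 48.0, 45.2 and 32.1 CPM, also without overlap (log2 difference 1.38, SE 0.19, edgeR adjusted p = 1.24e-10). The other genes called higher were FARSB (1.59), IARS1 (1.47), WARS1 (1.24), EPRS1 (0.94), LARS1 (0.94), CARS1 (0.91), YARS1 (0.81), RARS1 (0.75), TARS1 (0.75) and SARS1 (0.56). RARS1 had overlapping libraries and was not called when T98G NC replicate 2 or 3 or U251 NC replicate 1 or 3 was left out (adjusted p from 0.0820 to 0.142), nor with DESeq2 (0.106). HARS1 (0.05) and FARSA (0.12) were nearest to 0.

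Summed over the 19 cytosolic genes, the order of the groups was T98G NC highest, then U251 PEPD-OE, then T98G PEPD-OE and U251 NC. The sum was 1607 ± 86.5 CPM (SD, n = 3) in T98G NC and 952 ± 24.4 CPM in T98G PEPD-OE. The T98G NC libraries ranged from 1511 to 1678 CPM and the T98G PEPD-OE libraries from 926 to 974 CPM, so they did not overlap. In U251 the sum was 1222 ± 56.8 CPM in PEPD-OE, with libraries from 1156 to 1261 CPM, and 937 ± 128 CPM in NC, with libraries from 803 to 1059 CPM. The last 2 groups in the order, T98G PEPD-OE and U251 NC, overlapped. With TMM scaling the group means were 1553 CPM in T98G NC, 1216 CPM in U251 PEPD-OE, 1068 CPM in T98G PEPD-OE and 984 CPM in U251 NC, the same order.

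**Figure D3:**
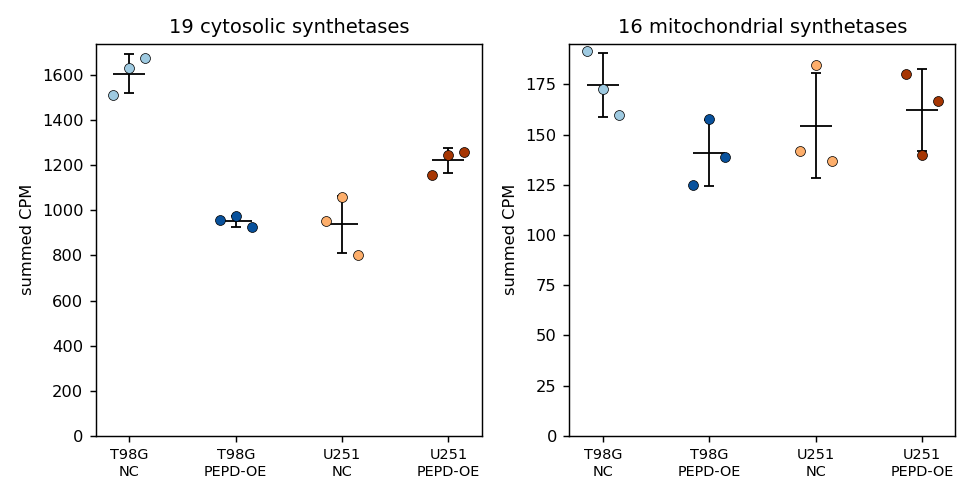
Summed CPM of the 19 cytosolic (left) and 16 mitochondrial (right) synthetases in each library, over raw library totals, on axes from 0; points are libraries, and bars are the mean and SD of 3. The cytosolic sum separates T98G NC (1511 to 1678 CPM) from T98G PEPD-OE (926 to 974 CPM), and the mitochondrial sum in T98G also separates on this scale (NC from 160 to 192 CPM, PEPD-OE from 125 to 158 CPM), though not after TMM scaling, while the U251 mitochondrial sums overlap.

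The mitochondrial enzymes were low and were not called in either PEPD comparison. Of the 16 genes 7 passed the filter on low counts: AARS2, CARS2, EARS2, HARS2, IARS2, LARS2 and RARS2. None of the 7 was called in T98G, in U251 or in the difference between the lines (edgeR quasi-likelihood test). Of all genes tested 32.3%, 8.55% and 27.7% were called in these comparisons. In U251 that share is small, so 0 of 7 there is no result about the group. At an unadjusted p under 0.05 there were 0, 1 and 0 of the 7 genes, and DESeq2 called none of them as well. Their median log2 fold change was 0.01 in T98G and 0.05 in U251. IARS2, with the most counts of the 7, was at 47.4, 37.8 and 43.2 CPM in T98G NC and at 31.3, 33.3 and 45.1 CPM in T98G PEPD-OE. Its libraries overlapped in both lines, and its log2 fold changes were 0.01 (SE 0.25) in T98G, where it was at -0.21 on raw totals, and 0.05 (SE 0.26) in U251. These SEs are close to those of IARS1 (0.25 and 0.28), so modest changes would not have been detectable at this depth. The other tested mitochondrial genes had larger SEs, up to 0.48 in T98G and 0.51 in U251, both for EARS2. For them larger changes could be missed as well.

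CARS2, the cysteinyl enzyme of the mitochondrion, was at 38.8, 29.7 and 40.6 CPM in T98G NC and at 19.5, 19.4 and 24.5 CPM in T98G PEPD-OE. The CPM values were separate but the gene was not called after TMM scaling (log2 fold change -0.55, SE 0.29, edgeR adjusted p = 0.146); fitted on raw totals, CARS2 was called at -0.77 (adjusted p = 0.0324). LARS2, the leucyl enzyme, had the highest log2 fold change in U251, 0.84 (SE 0.39, edgeR adjusted p = 0.188), with 13.7, 7.53 and 8.33 CPM in NC and 22, 16 and 19.5 CPM in PEPD-OE. AARS2 was lower in T98G NC than in U251 NC, at 12.9, 18.9 and 7.86 CPM against 24.0, 28.9 and 23.8 CPM (log2 difference -1.06, SE 0.36, edgeR adjusted p = 0.00856), and this call was lost without T98G NC replicate 3 (0.123). The summed mitochondrial level was 175 ± 16.1 CPM in T98G NC, 141 ± 16.5 CPM in T98G PEPD-OE, 154 ± 26.2 CPM in U251 NC and 162 ± 20.4 CPM in U251 PEPD-OE (SD, n = 3). The T98G libraries did not overlap on raw CPM (NC from 160 to 192 CPM, PEPD-OE from 125 to 158 CPM). On TMM-scaled CPM the T98G means were 169 and 158 CPM, and the libraries overlapped.

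The other 9 mitochondrial genes had too few counts to be tested. Over all 12 libraries TARS2 had 93 counts, WARS2 53, YARS2 42, NARS2 34, FARS2 21, MARS2 16, PARS2 7, SARS2 6 and VARS2 1. In a single library these are a handful of counts or none, and no direction can be read from them.

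Of the scaffold genes, AIMP1 and AIMP2 were tested and EEF1E1, with 34 counts in all, was not. AIMP1 was at 64.6, 70.1 and 101 CPM in T98G NC and at 57.3, 40.2 and 50.2 CPM in T98G PEPD-OE. Its T98G groups were separate on raw CPM, though not on TMM-scaled CPM, and it missed the threshold (log2 fold change -0.48, SE 0.20, edgeR adjusted p = 0.0547); it was called there with upper-quartile scaling (0.0320) and on raw totals (0.00363). In U251 AIMP1 was at 54.9, 46.5 and 46.4 CPM in NC and at 64.4, 68.8 and 62.8 CPM in PEPD-OE (log2 fold change 0.32, edgeR adjusted p = 0.372). AIMP2 was at 25.9, 14.8 and 22.3 CPM in T98G NC and at 53.8, 46.5 and 40.5 CPM in U251 NC. It was the tested gene with the largest deficit in T98G NC (log2 difference -1.32, SE 0.27, edgeR adjusted p = 1.29e-05), while AIMP1 was higher there (0.58, edgeR adjusted p = 0.0105; not called without T98G NC replicate 3 or U251 NC replicate 2, at 0.246 and 0.0549, nor with DESeq2, at 0.0562). Of the 7 cytosolic enzymes known from the complex 3 fell in T98G (IARS1, KARS1 and MARS1), and of the 12 outside it 7 fell. Of all genes tested 14.7% were called lower there. The split by complex was drawn up after the values were seen, and the difference between its shares was not tested.

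Compared per kilobase of exon, most cytosolic enzyme genes held more counts than their mitochondrial counterparts. The median level of the 19 cytosolic genes was 14.0 CPM per kb in T98G NC, 7.80 in T98G PEPD-OE, 7.40 in U251 NC and 10.3 in U251 PEPD-OE. The median of the 16 mitochondrial genes lay between 1.53 and 2.0 CPM per kb in the 4 groups. SARS1 had the highest cytosolic level per kb in T98G NC (40.2), U251 NC (25.1) and U251 PEPD-OE (29.4), and HARS1 in T98G PEPD-OE (21.4). Pairs were matched by symbol, such as AARS1 with AARS2, which gave 13 amino acids. The glutamyl, prolyl and phenylalanyl enzymes, whose symbols do not match in this way, were left out. The cytosolic gene was higher per kb in 12 pairs in T98G NC, T98G PEPD-OE and U251 PEPD-OE, and in 11 in U251 NC. The isoleucyl pair was reversed in every group: IARS1 had 8.26 CPM per kb and IARS2 10.3 in T98G NC, and 2.81 and 6.82 in U251 NC. The arginyl pair was nearly level in U251 NC, with 5.41 CPM per kb for RARS1 and 5.65 for RARS2. Exon lengths are those of all annotated exons joined, so genes with many alternative exons look lower on this scale. The strand of the counted reads is not known, so the order of genes here may not be their order of expression.

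**Figure D4:**
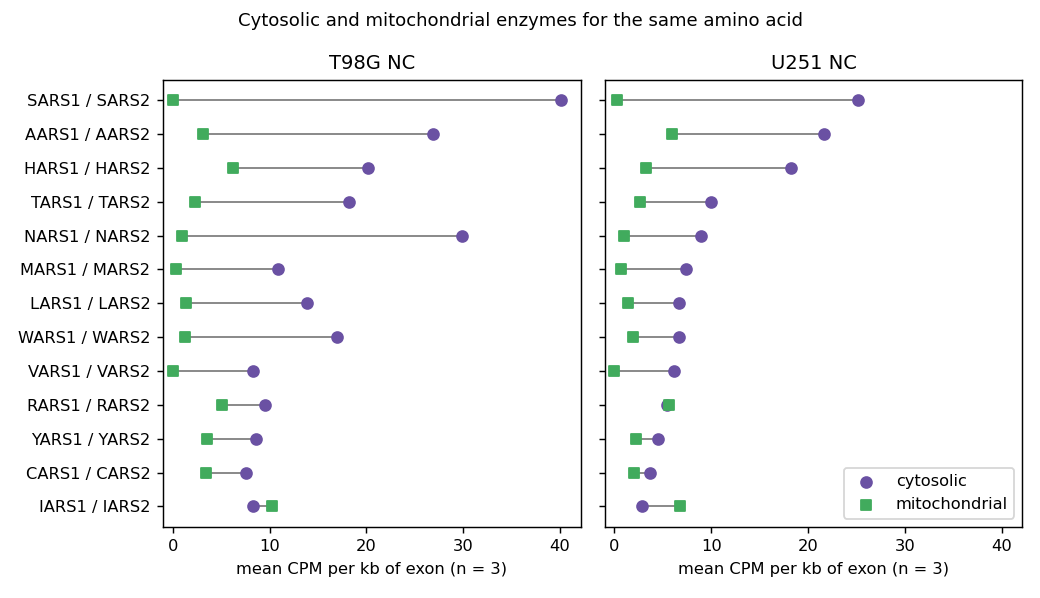
Mean level per kilobase of exon (CPM per kb, n = 3) of the cytosolic (circle) and mitochondrial (square) enzyme in T98G NC and U251 NC. Shown are the 13 amino acids whose enzyme genes were paired by symbol. The circle lies to the right in 12 pairs in T98G NC and 11 in U251 NC, with IARS1 and IARS2 reversed in both.

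Genes on the opposite strand bear on some of these values. The 18 genes with such an overlap form 23 pairs sharing 25 to 532 exon bases, and in 5 pairs the partner held more counts. AIMP2 shares 532 bases, 28.9% of its exon length, with EIF2AK1, which encodes the haem-regulated eIF2 kinase and held 4441 counts against 306 for AIMP2. EIF2AK1 was at 599 ± 73.0 CPM in T98G NC and 226 ± 37.7 CPM in T98G PEPD-OE (SD, n = 3; log2 fold change -1.19, edgeR adjusted p = 2.08e-18). HARS1 and HARS2 lie head to head on chromosome 5, with RefSeq starts 85 bases apart, and share 437 exon bases. HARS1 held 1373 counts and HARS2 133, and neither was called in a PEPD comparison. HARS1 also shares 221 bases with WDR55, which was called lower in T98G (log2 fold change -0.74, edgeR adjusted p = 0.000127) while HARS1 was not.

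MARS1 shares 355 bases with DDIT3, itself an ATF4 target that encodes CHOP. DDIT3 was at 26.7 ± 5.11 CPM in T98G NC and 13.7 ± 0.587 CPM in T98G PEPD-OE (log2 fold change -0.70, edgeR adjusted p = 0.0989), and the part of these reads in the MARS1 value was not tested. WARS1 shares 385 bases with AL157871.4 and 287 with WDR25, which held 18 and 8 counts against 524 for WARS1. GARS1 shares 99 bases with GARS1-DT (log2 fold change -0.03 in T98G and 0.17 in U251) and KARS1 176 bases with TERF2IP (0.20 and -0.10), none of them called. Of the 13 tested genes with no overlap, 5 fell in T98G (TARS1, IARS1, SARS1, NARS1 and AARS1), against 13.5% of all tested genes without overlap, and 2 rose in U251 (TARS1 and EPRS1), against 3.86%.

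Most other ATF4 regulators and targets also fell in T98G, and a part of them rose in U251. Of 21 tested genes on that list, 13 fell and 2 rose in T98G, with a median log2 fold change of -0.94, against 14.7% and 17.7% of all genes tested. In U251 9 were called higher and 0 lower (edgeR), the median being 0.62, against 4.13% called higher. Among those that fell in T98G were PSAT1, a serine synthesis enzyme, from 69.6 ± 9.27 to 5.32 ± 2.37 CPM (log2 fold change -3.47), and SLC3A2, the heavy chain of amino acid transporters, from 237 ± 27.7 to 46.4 ± 7.74 CPM (-2.12). STC2 fell in T98G (-2.46) and rose in U251 (1.53), and ATF5 (opposite IL4I1 and NUP62) did likewise (-3.42 and 0.93). TRIB3, a pseudokinase (1.86), and SLC7A5, the light chain of a leucine transporter (1.61, opposite AC126696.2), rose in U251. The genes that rose in T98G were CEBPB (1.45, opposite CEBPB-AS1) and SLC38A2 (0.52). They and ATF4 itself are named after their values were seen. ATF4 was at 205 ± 28.3 CPM in T98G NC and 105 ± 20.5 CPM in T98G PEPD-OE (log2 fold change -0.76, edgeR adjusted p = 9.92e-06). It was not called in U251 (0.29, edgeR adjusted p = 0.234).

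The eIF2 kinases, eIF2 subunits and eIF2 phosphatase genes, 18 tested, had 6 lower and none higher in T98G, where 14.7% and 17.7% of all genes were, and 2 higher and 1 lower in U251, where 4.13% and 4.42% were. PPP1R15A, the inducible subunit that directs the phosphatase to eIF2, fell in T98G (-0.96) and rose in U251 (1.32). EIF2AK2, the double-stranded RNA kinase (opposite GPATCH11 and AC007899.1), and EIF2S1, the alpha subunit of eIF2 (opposite ATP6V1D), fell in T98G by 1.49 and 0.85 on the log2 scale. EIF2S2, the beta subunit, rose in U251 (0.59), and PPP1CB, a catalytic subunit, fell there (-0.56).

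Genes of the later steps of translation were called in both directions. Of 10 tested cytosolic elongation and release factors, EIF5A fell (-0.72, opposite GPS2) and EEF2 rose (0.23) in T98G, and none was called in U251 (edgeR), where 2 had an unadjusted p under 0.05. In T98G 14.7% of all genes tested were called lower and 17.7% higher, so these calls are no result about the factors. Of 8 mitochondrial translation factors 3 fell and 2 rose in T98G (14.7% and 17.7% of all genes). MTIF2 (-0.94) was among those that fell, and MTERF4 (0.92, opposite SNED1) and MTRF1L (0.87, opposite AL080276.2) rose. In U251 GATC, opposite SRSF9, fell from 1218 ± 112 to 1078 ± 54.0 CPM (-0.26). Of 50 mitochondrial ribosomal protein genes 6 fell and 4 rose in T98G and 2 fell in U251, with medians of -0.38 and 0.11. These shares are at or below those of all genes (14.7% lower and 17.7% higher in T98G, 4.42% lower in U251), so they are no result about the group. MRPL15 (-1.93), MRPL54 (-1.73) and MRPS30 (-1.37) fell and MRPS6 (1.22) rose in T98G, and MRPL28 (-0.92) fell in U251. The other mitochondrial ribosomal genes that rose in T98G, named after their values were seen, were MRPL43 (0.79), MRPS22 (0.69) and MRPS18C (0.47), each with an opposite-strand partner; MRPS22 (opposite COPB2, PRR23A and AC024933.1) also fell in U251 (-0.24).

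Of 18 tested genes of tRNA processing, export and proofreading, 5 fell and 3 rose in T98G, where 14.7% and 17.7% of all genes did. NSUN2, a tRNA methyltransferase, fell from 101 ± 24.2 to 44.0 ± 7.09 CPM (-0.99), and TRMT6, a subunit of another methyltransferase, fell as well (-1.62). TSEN54, a subunit of the splicing endonuclease, rose (1.53), as did RPP38 of RNase P (0.84, opposite NMT2 and C10orf111). XPO5 (-0.83, opposite POLR1C), XPOT (-0.77), the tRNA exporter, and SSB (-0.54, opposite METTL5) fell, and TRNT1 (0.30, opposite CRBN) rose; these were named after their values were seen. In U251 PUS1, a pseudouridine synthase (opposite AC131009.1), rose (1.32) and TRNT1 fell (-0.29).

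The interferon-induced genes, to which WARS1 belongs but which were counted without it, had 23 lower and 1 higher of 25 tested in T98G, with a median log2 fold change of -2.54, against 14.7% of all genes lower and 17.7% higher. IFIT3 fell from 101 ± 8.18 to 2.20 ± 2.70 CPM (log2 fold change -5.20), and MX1 (opposite AP001610.1) fell from 282 ± 55.1 to 7.58 ± 3.10 CPM (-5.00). In U251 11 of the 25 were called lower and 0 higher (edgeR), against 4.42% of all genes lower, the median being -0.41, including IFIT1 (-0.89) and ISG15 (-0.85, opposite AL645608.3). GBP2, the gene that rose in T98G (1.29), fell in U251 (-0.73). WARS1 fell in T98G, where most genes of both the ATF4 and the interferon list were lower. In U251 20 of 21 tested ATF4 list genes had positive and 24 of 25 interferon list genes negative fitted values, and that of WARS1 was positive but not called. What lay behind the WARS1 values in either line was not tested.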

How the data were processed

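Polyadenylated RNA of 12 libraries was sequenced as strand-marked paired-end reads, per the labels' protocols. The deposited table holds the authors' raw read counts per Ensembl gene; FastQC, fastp, HISAT2, featureCounts, Subread and build GRCh38 are named per the submitters' processing notes. The annotation release, like the strand setting, is not given in the sources used here.

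Counts were tested in R 4.3.3 with edgeR 4.0.16 (filterByExpr with a minimum count of 10, TMM scaling, robust quasi-likelihood fit of 4 group means to all 12 libraries, 8 residual degrees of freedom, two-sided p adjusted by Benjamini and Hochberg over 8773 genes). The SE is the log2 fold change divided by the square root of F. The script was tested on simulated data. An exact test of 3 against 3 cannot go below 0.1, so no single value was tested apart from the fit. Levels are CPM over raw totals. Positions and exon overlaps come from GENCODE release 29, and promoters from RefSeq.

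The genes and lists were chosen with earlier results of these data known. Named genes were PEPD, the tested members, up to 4 called genes per list and line with the largest fold changes (at least 2 CPM in the higher group), and opposite-strand partners. Alternatives were DESeq2 1.42.0, upper-quartile or RLE scaling, a fit of all genes unfiltered, at least 1 CPM in 3 libraries, a replicate block, robust estimation off, genes without opposite-strand overlap, each line alone, each library left out and, added after seeing the data, raw library totals. Only a part of the genes this rule takes is reported here.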

Additional observations from a re-analysis of the deposited data

Results flagged for a closer look

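The change with PEPD over-expression differed between T98G and U251 for 15 genes, by edgeR's test of the difference itself (T98G change minus U251 change, log2, adjusted over all 8773 genes). All 15 values were negative. They were -2.58 for WARS1, -1.92 for FARSB, -1.85 for TARS1, -1.55 for IARS1, -1.52 for FARSA, -1.43 for GARS1, -1.32 for MARS1 and -1.24 for EPRS1. They were -1.24 for NARS1, -1.10 for SARS1, -0.995 for YARS1, -0.84 for KARS1, -0.83 for VARS1, -0.80 for AIMP1 and -0.73 for AARS1. The adjusted p ran from 1.55e-12 for WARS1 to 0.0462 for VARS1, and the calls for VARS1, AARS1, KARS1, FARSB and AIMP1 were lost when single libraries were left out, as given with their values above. DESeq2 also lost VARS1, AARS1, KARS1 and AIMP1, calling 11 of the 15.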

How the results depend on the processing

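No called gene among the 28 tested changed direction under any alternative run. In T98G, 211 of 215 alternative values of the 10 called genes kept the call, in U251 56 of 65 for the 3 called genes, in the difference between lines 283 of 308 for 15 genes, and between NC groups 295 of 307 for 15 genes. On raw totals, where the median of all genes shifts by -0.21 in T98G, -0.32 in the difference between lines and 0.12 between NC groups, 18 members were lower in T98G. The genes called higher and lower then numbered 1046 and 2067 in T98G (1551 and 1286 with TMM), 535 and 232 in U251 (362 and 388), 809 and 1964 in the difference between lines (1239 and 1189), and 2531 and 1797 between NC groups (2137 and 2136). DESeq2 called 347 genes and 0 members in U251, against 750 and 3. Among genes without opposite-strand overlap, where fewer genes are tested, 1140 genes and 5 members (all lower) were called in T98G, 245 genes in U251, 917 genes with 7 members lower in the difference between lines, and 1843 genes with 6 members higher and 0 lower between NC groups. RLE scaling called 1 member, HARS1, positive in the difference between lines; the cause was not tested.

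With the replicate number as a block, 10 members were lower in T98G, 3 higher in U251, and in the difference between lines 14 lower and 1 higher (HARS1, adjusted p = 0.0496). Same-numbered libraries correlated at -0.04 to 0.06 across genes, and not every library correlated best with its own number. With few counts per gene such values may stay near 0 even for paired libraries. They therefore do not tell if same-numbered libraries were paired.

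With 1 library left out, the T98G fit called 8 to 12 members lower and 2350 to 3023 genes. The U251 fit called 1 to 3 members higher and 440 to 742 genes (440 without U251 PEPD-OE replicate 2, 449 without U251 NC replicate 1 and 442 without U251 NC replicate 3). The difference between lines called 0 to 1 member positive, and the NC comparison 1 to 3 members lower (1 without T98G NC replicate 3). With TMM scaling the T98G PEPD-OE sums were 1068 CPM (cytosolic) and 158 CPM (mitochondrial). With 836 to 1498 counts for all 38 genes in a library, the 10 untested members could not be compared.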
